A study of Mus musculus with 4 samples.

Results

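The mitochondrial ribosomal protein genes were taken as all genes whose symbol starts with Mrpl or Mrps followed by a digit, which gave 76 of the 21506 genes in the tables. By symbol, 47 of them encode large-subunit proteins and 29 encode small-subunit proteins. They were measured by poly(A) RNA sequencing in cells of 32Dclone3, a myeloid progenitor line of the mouse that is grown in medium with serum and interleukin-3. The miR-125b group was 2 cultures stably infected with an XZ virus that carries miR-125b, a miRNA abundant in haematopoietic stem and progenitor cells. The control group was 2 cultures of the same line infected with the XZ control virus. Separate virus preparations were used for the 2 infections of each condition. The p-values rest only on the spread between such cultures, pooled for each gene in part with that of other genes. The comparison asked how expression differed between miR-125b and vector cells, here for each subunit of the mitoribosome.

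The mitoribosome translates the few messages encoded by mitochondrial DNA, all of which specify subunits of the respiratory chain and of ATP synthase. Its rRNAs and one tRNA come from the mitochondrial genome, whereas all of its proteins are encoded in the nucleus, made in the cytosol and imported. The small subunit reads the message in its decoding centre, and the large subunit forms the peptide bond and holds the exit tunnel. Many of its proteins have a counterpart in the bacterial ribosome, and the others were added in the course of evolution. A few symbols mislead about the subunit. Mrps30 and Mrps18a sit in the large subunit of the mammalian mitoribosome, and Mrps36 is now assigned to the 2-oxoglutarate dehydrogenase complex.

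Levels are given as RPKM, reads scaled to exon length in kilobases and to library size in M reads, 1 value per gene from its longest transcript row. Over 1 row per gene the miR-125b libraries held 9.48 and 8.82 M reads and the control libraries 8.42 and 7.73 M. The hairpin row of Mir125b-1 held 4 reads in each miR-125b library and 0 reads in each control library, where a count of 0 allows up to 3. Markers listed for myeloid progenitors summed to 1629 and 1154 RPKM with miR-125b, against 1063 and 1798 RPKM in control. Within that list Mpo, the myeloperoxidase gene, stood at 273 and 105 RPKM with miR-125b, against 39.1 and 54.2 RPKM in control. Most of the list went the other way. Of its 8 genes that passed the filter described below, 2 had a positive and 6 a negative log2 fold change. That is 75% negative, against 47.2% of all tested genes, and the median was -0.14. Kit was listed at 0 in all libraries but control replicate 2, which held 1 read. Lymphoid markers summed to 0.392 RPKM at most in any library, erythroid markers to between 13.3 and 30.4 RPKM, and stromal markers to between 4.89 and 9.94 RPKM. The part of such differences in the results below was not tested, and in bulk RNA fewer cells of a type and less RNA per cell cannot be told apart.

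The summed level of the mitoribosomal genes was close in the 2 groups, and for the large subunit it differed most between the 2 control cultures. The 47 large-subunit genes summed to 1589 and 1507 RPKM in the miR-125b libraries, against 1740 and 1416 RPKM in the control libraries. The group means were 1548 ± 58.0 RPKM with miR-125b and 1578 ± 229 RPKM in control (SD, n = 2 each), a ratio of 0.981. Both miR-125b libraries thus lay between the 2 control libraries. The 29 small-subunit genes summed to 818 and 791 RPKM with miR-125b, against 904 and 826 RPKM in control. Here both miR-125b libraries lay below both controls. The means were 804.5 ± 18.9 RPKM with miR-125b and 865.3 ± 55.4 RPKM in control (SD, n = 2 each), a ratio of 0.930. This order rested on Mrps21, which held 166 and 163 RPKM with miR-125b, against 168 and 228 RPKM in control. Without that gene control replicate 2 would have the lowest sum. The median over the 29 genes was 23.9 and 24.8 RPKM with miR-125b, against 27.0 and 19.3 RPKM in control. The large-subunit sum was 1.94 and 1.90 times the small-subunit sum with miR-125b, against 1.92 and 1.71 times in control. The ratio of sums therefore stood apart only in control replicate 2, the library in which Mrps21 was high, and the groups overlapped. Medians of log2(RPKM + 1) over the genes that passed the filter described below gave another picture. The large-subunit median exceeded the small-subunit median by 0.017 and 0.051 with miR-125b, against 0.127 and 0.226 in control. By this measure the groups did not overlap, and the difference was not tested.

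**Figure D1:**
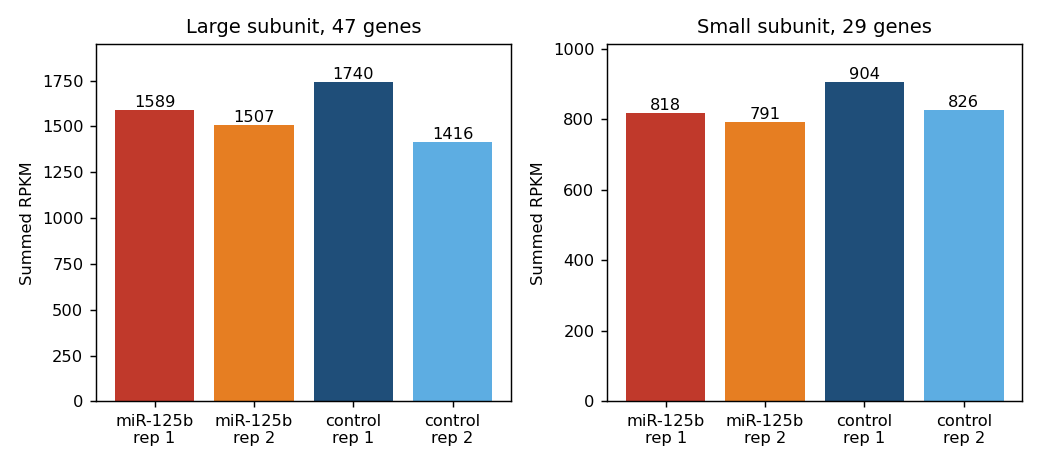
Summed RPKM of the 47 large-subunit genes (left) and the 29 small-subunit genes (right), 1 bar per library. The large-subunit bars of the miR-125b libraries (1589 and 1507) lie between those of the controls (1740 and 1416), and the small-subunit bars of the miR-125b libraries (818 and 791) lie below those of the controls (904 and 826).

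Of the 76 genes, 74 passed the filter of at least 1 RPKM in at least 2 libraries, 46 for the large and 28 for the small subunit. No mitoribosomal gene was called by limma's moderated test on log2(RPKM + 1) at a Benjamini-Hochberg adjusted p under 0.05, where 0% of the 10310 tested genes were called. At an unadjusted p under 0.05 there were 0 mitoribosomal genes higher with miR-125b and 2 lower, Mrps12 and Mrpl36. That is 2.70% of the 74, against 9.38% of all tested genes, of which 4.17% were higher and 5.21% lower. In the whole table limma-voom, run on the recovered reads, called 0 genes and gave 997 an unadjusted p under 0.05. The counts of mitoribosomal genes depended on single libraries. Without control replicate 1, 17 were higher and 5 lower at an unadjusted p under 0.05, against 15.5% and 14% of all tested genes. Without control replicate 2, 0 were higher and 10 lower, against 6.04% and 5.46% of all tested genes. Leaving out miR-125b replicate 1 gave 1 higher and 0 lower, against 2.41% and 4.11% of all tested genes. Leaving out miR-125b replicate 2 gave 0 and 0, against 0.961% and 2.2%. In these fits the lone library of a group is assumed to vary like the other group.

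Fold changes were small and went both ways. With miR-125b 34 of the 74 genes had a positive and 40 a negative log2 fold change, with a median of -0.020 and an interquartile range from -0.18 to 0.13. Over all tested genes the median was 0.024, and 47.2% of them had a negative value. The median size of the fold change, without its sign, was 0.144 among the mitoribosomal genes and 0.204 among all tested genes, both on the log2(RPKM + 1) scale. In the large subunit 24 genes were positive and 22 negative, with a median of 0.019. In the small subunit 10 were positive and 18 negative, with a median of -0.064. The difference of these medians, 0.083, fell to 0.030 when control replicate 2 was left out and to 0.039 when miR-125b replicate 2 was. For median levels within each library, given above, large minus small went the other way and was lower with miR-125b than in control. Standard errors of single genes ran from 0.172 to 0.353 with a median of 0.215, which is larger than most of the fold changes. With 1 library left out, the sign of the fold change was not the same in every fit for 48 of the 74 genes.

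**Figure D2:**
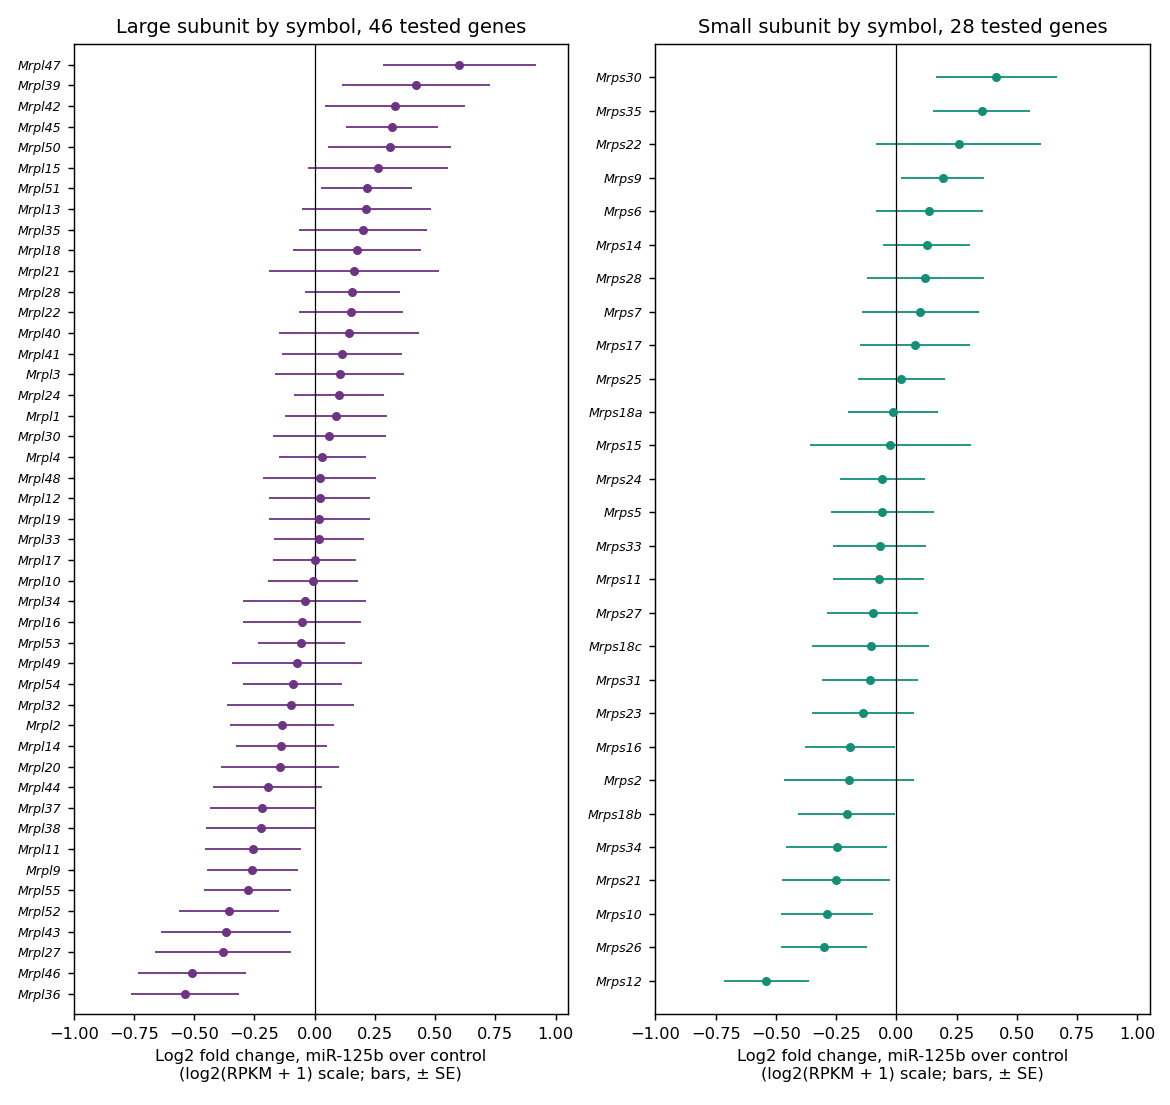
Log2 fold change, miR-125b over control, of each tested large-subunit gene (left) and small-subunit gene (right), sorted by size, with bars of ± 1 SE from limma. Values run from -0.54 for Mrps12 and Mrpl36 to 0.60 for Mrpl47, and most bars cross 0.

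Median fold changes lay near 0 both for genes with a bacterial counterpart and for those without one, and the difference was not tested. The 29 tested large-subunit genes with a counterpart had a median log2 fold change of 0.020, and the 18 without one, Mrps30 among them, a median of -0.018. In the small subunit the median was -0.058 over 17 genes with a counterpart and -0.099 over 9 without one. Groups were also compared by whether their libraries overlapped. In 6 of the 74 genes both miR-125b libraries lay above both controls, against 22.3% of all tested genes, and in 11 they lay below, against 20.4%. The 6 were Mrpl45, Mrpl47, Mrpl51, Mrps9, Mrps30 and Mrps35. The 11 were Mrpl9, Mrpl14, Mrpl36, Mrpl46, Mrpl52, Mrpl55, Mrps10, Mrps12, Mrps16, Mrps21 and Mrps26.

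Mrps12 had the smallest p of the set. It encodes the counterpart of bacterial S12, a protein of the decoding centre, and lies on chromosome 7 from 29524660 to 29526800 in mm9 on the minus strand, with 3 exons. Mrps12 stood at 27.1 and 28.0 RPKM with miR-125b, against 40.0 and 41.1 RPKM in control, from 234 and 225 reads against 307 and 292. The replicates of each group lay close together and the groups were apart. The log2 fold change was -0.54 ± 0.18 (SE), with an unadjusted p of 0.020 and an adjusted p of 0.473 in limma's test, so the gene was not called. It was negative under all 13 alternatives and lay between -0.56 and -0.40. The smallest change came with a correction for transcript GC content.

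Mrpl36 encodes the counterpart of bacterial L36, one of the smallest large-subunit proteins, and lies on chromosome 13 from 73468457 to 73469626 in mm9. It stood at 21.5 and 19.9 RPKM with miR-125b, against 36.5 and 25.5 RPKM in control. The miR-125b libraries were again below both controls, but the controls themselves differed widely. The log2 fold change was -0.54 ± 0.22 (SE), with an adjusted p of 0.527 in limma's test, and it was -0.29 without control replicate 1. Mrpl46, a large-subunit protein with no bacterial counterpart, stood at 20.6 and 15.6 RPKM with miR-125b, against 29.3 and 22.9 RPKM in control, a log2 fold change of -0.51 ± 0.22 (SE) that lay between -0.70 and -0.32 with 1 library left out. Mrpl52, likewise without a bacterial counterpart, was at 38.3 and 47.6 RPKM with miR-125b, against 59.9 and 50.3 RPKM in control. Mrpl55, the counterpart of bacterial L31, was at 15.7 and 13.5 RPKM with miR-125b, against 17.2 and 18.7 RPKM in control. All 3 were lower in both miR-125b libraries than in either control, with adjusted p-values from 0.534 to 0.642 in limma's test. With 1 library left out the log2 fold change lay between -0.51 and -0.20 for Mrpl52 and between -0.38 and -0.18 for Mrpl55.

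Higher values with miR-125b were led by Mrpl47, the counterpart of bacterial L29, which sits near the mouth of the exit tunnel. Mrpl47 stood at 16.01 and 14.4 RPKM with miR-125b, against 13.9 and 6.64 RPKM in control. The groups were separated by a narrow gap, and control replicate 2 alone was far below the other 3 libraries. The log2 fold change was 0.60 ± 0.32 (SE), with an adjusted p of 0.584 in limma's test, and it was 0.12 without control replicate 2 and 1.08 without control replicate 1. Mrpl45, which lies at the tunnel exit and tethers the mitoribosome to the inner membrane, was at 18.6 and 21.2 RPKM with miR-125b, against 17.3 and 14.3 RPKM in control. Mrps35, a small-subunit protein without a bacterial counterpart, was at 31.2 and 34.3 RPKM with miR-125b, against 28.6 and 22.5 RPKM in control. Mrps30 was at 13.65 and 21.9 RPKM with miR-125b, against 13.61 and 11.9 RPKM in control. Its groups did not overlap only by the margin between miR-125b replicate 1 and control replicate 1. Mrps26, the remaining Mrps gene among the smallest p, went the other way. It was at 30.1 and 28.8 RPKM with miR-125b, against 35.8 and 37.3 RPKM in control. The adjusted p of these 4 genes lay between 0.607 and 0.620 in limma's test. With 1 library left out the log2 fold change lay between 0.19 and 0.45 for Mrpl45, between 0.19 and 0.52 for Mrps35, between 0.092 and 0.74 for Mrps30 and between -0.33 and -0.27 for Mrps26.

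**Figure D3:**
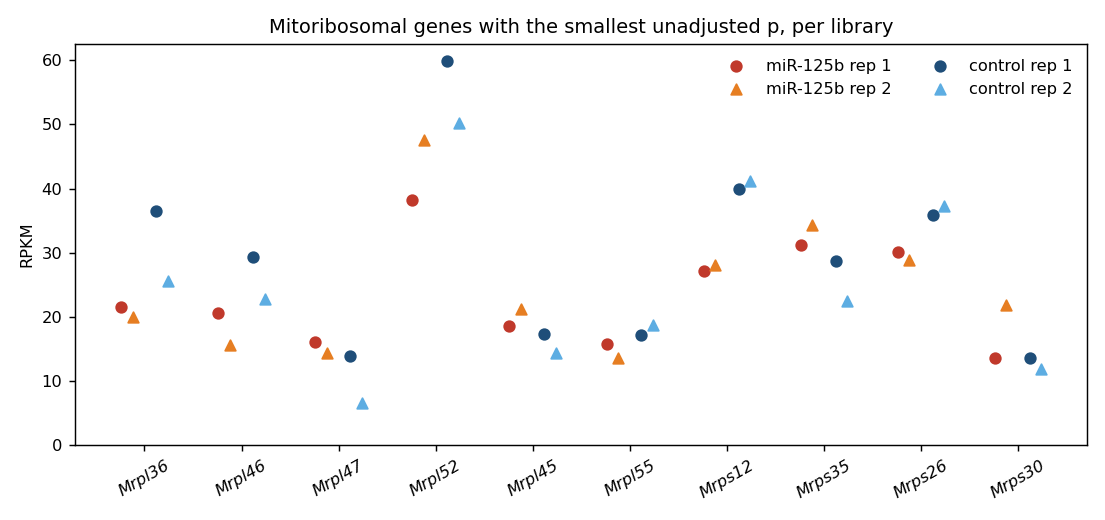
RPKM per library of the 6 large-subunit and 4 small-subunit genes, by symbol, with the smallest unadjusted p. Circles mark replicate 1 and triangles replicate 2. Mrps12 shows tight replicates (27.1 and 28.0 with miR-125b, against 40.0 and 41.1 in control), whereas the controls of Mrpl36 (36.5 and 25.5) and Mrpl47 (13.9 and 6.64) lie far apart.

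The mean level differed 80.6-fold between the most and least abundant tested genes, although the proteins are assembled into one particle. Between genes, levels are per length (RPKM). Of the 74 tested genes, 51 had a mean over the 4 libraries of 10 to 60 RPKM, 9 a mean above 60 and 14 a mean below 10. Mrps21, the counterpart of bacterial S21, was the most abundant, at 166 and 163 RPKM with miR-125b, against 168 and 228 RPKM in control. Control replicate 2 was the high library, and the other 3 lay within a narrow range. Next came Mrpl12, the factor-binding stalk protein of the large subunit, at 104 and 89.3 RPKM with miR-125b, against 105 and 86.4 RPKM in control. Mrpl42 was at 102 and 106 RPKM with miR-125b, against 110 and 61.8 RPKM in control, and Mrpl9 at 81.0 and 90.2 RPKM with miR-125b, against 101 and 104 RPKM in control. In the small subunit Mrps7, which nucleates the head of the subunit, was at 66.4 and 66.2 RPKM with miR-125b, against 76.0 and 50.3 RPKM in control, and Mrps18c at 44.7 and 39.7 RPKM, against 55.7 and 37.1 RPKM. Of these genes only Mrps21 and Mrpl9 had groups that did not overlap, and the adjusted p over the 6 genes lay between 0.674 and 0.975 in limma's test.

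The lowest tested levels were those of Mrpl48 and Mrpl35 in the large and Mrps33 and Mrps5 in the small subunit. Mrpl48 was at 2.76 and 1.80 RPKM with miR-125b, against 1.97 and 2.44 RPKM in control. A second, noncoding row of Mrpl48 held 8.08 and 4.39 RPKM with miR-125b, against 5.96 and 9.09 RPKM in control, so the level of this gene depends on the row. Mrpl35 was at 2.98 and 2.91 RPKM with miR-125b, against 3.33 and 1.72 RPKM in control. Mrps33 was at 2.94 and 2.59 RPKM, against 2.97 and 2.93 RPKM, and Mrps5 at 6.19 and 4.64 RPKM, against 6.27 and 5.04 RPKM. A second, shorter row of Mrps33 held 0.34 and 0.46 RPKM with miR-125b, against 0.76 and 0.21 RPKM in control. The level of Mrps33 thus depends on the row as well. None of these 4 genes came near the threshold, with adjusted p-values from 0.805 to 0.977 in limma's test. The 2 genes that failed the filter had few reads or none, and how reads that match several places were counted is unknown, so these counts need not reflect low expression. Mrpl23, part of the ring around the tunnel exit, held 2 and 4 reads with miR-125b, against 0 and 0 in control. Mrps36 held 0 and 2 reads with miR-125b, against 2 and 5 in control. At these counts no difference was detectable. Across the 74 tested genes longer exon length went with lower mean RPKM, with a Spearman's rho of -0.51, against -0.12 over 10310 genes. Genes are not independent replicates, and no p is given.

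By functional neighbourhood of the particle, fold changes differed in sign in the stalk and between Mrpl2 and Mrpl3. They were positive for the exit-tunnel genes given here and negative for the S18 family. None passed the test. The genes given here were picked for their roles with their values already seen. In the stalk and its base, Mrpl11 was at 8.96 and 10.1 RPKM with miR-125b, against 13.2 and 10.1 RPKM in control, while Mrpl10 was at 29.2 and 28.4 RPKM, against 31.6 and 26.5 RPKM. The log2 fold changes of Mrpl10, Mrpl11 and Mrpl12 were -0.0084, -0.25 and 0.020. Mrpl2 and Mrpl3, which reach towards the peptidyl transferase centre, had log2 fold changes of -0.13 and 0.10. At the exit tunnel, beside Mrpl45 and Mrpl47, Mrpl22 was at 0.15 and Mrpl24 at 0.10. The S18 family has 3 members in mammals, of which Mrps18b and Mrps18c are in the small subunit. Their log2 fold changes were -0.015 for Mrps18a, -0.21 for Mrps18b and -0.11 for Mrps18c. The adjusted p-values of Mrpl10, Mrpl11, Mrpl12 and the S18 family lay between 0.692 and 0.986 in limma's test.

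The larger contrast lay between the 2 control cultures. Control replicate 2 was below control replicate 1 in 58 of the 74 genes, which is 78.4%, against 51.5% of all tested genes. The median difference was -0.33 among the mitoribosomal genes and -0.016 among all tested genes on the log2(RPKM + 1) scale. Between the miR-125b cultures, replicate 2 was below replicate 1 in 49 genes, against 51.5% of all tested genes, but the median difference was only -0.048. Mrpl21 had the widest gap, with 17.0 RPKM in control replicate 1 and 7.38 RPKM in control replicate 2, followed by Mrps22 with 22.8 and 10.2 RPKM. Their miR-125b values lay between these, at 13.98 and 11.6 RPKM for Mrpl21 and at 18.5 and 18.6 RPKM for Mrps22. In the remaining genes control replicate 2 was the higher one. Mrpl27 was at 3.78 and 7.26 RPKM in the controls, Mrpl43 at 43.8 and 68.3 RPKM, Mrps21 at 168 and 228 RPKM and Mrps34 at 27.0 and 36.0 RPKM.

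Control replicate 1 was the highest of the 4 libraries in 43 of the 74 genes, or 58.1%, against 24.8% of all tested genes. Control replicate 2 was the lowest in 45, or 60.8%, against 37.0%. The direction of the comparison with miR-125b therefore followed the control used. For the large subunit the median log2 difference was -0.10 and -0.21 for miR-125b replicates 1 and 2 against control replicate 1, and 0.27 and 0.10 against control replicate 2. For the small subunit the same medians were -0.13 and -0.18 against control replicate 1, and 0.15 and 0.040 against control replicate 2. The all-gene medians of these 4 pairs lay between -0.011 and 0.040. With control replicate 1 as the only control, 10 of 46 large-subunit genes were higher in miR-125b replicate 1, and with control replicate 2 as the only control 34 of 46 were.

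**Figure D4:**
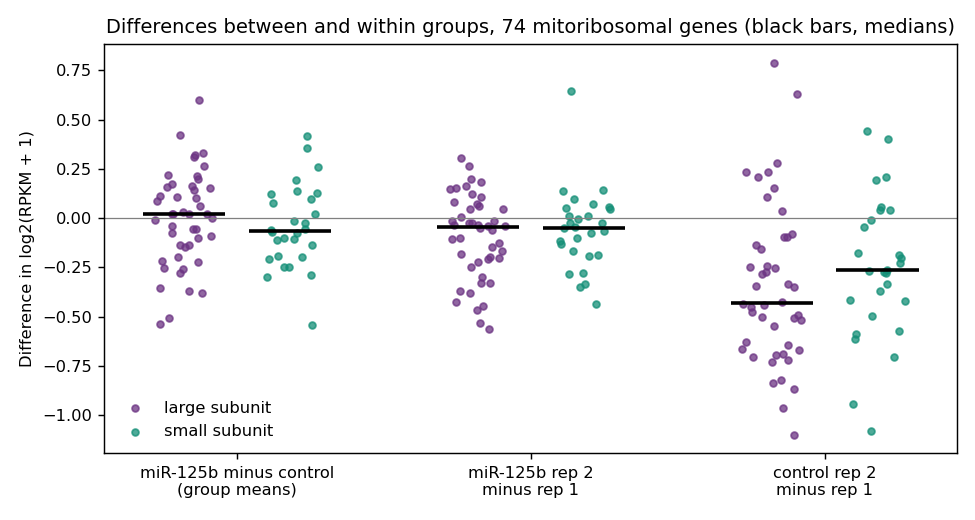
Differences in log2(RPKM + 1) of the 74 tested genes between the group means, between the 2 miR-125b libraries and between the 2 control libraries, by subunit; black bars are medians. The medians of miR-125b minus control are near 0 (0.019 and -0.064), as are those within the miR-125b group, while the points for control replicate 2 minus replicate 1 lie mostly below 0 (medians of -0.43 and -0.27).

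Transcript GC content moved with the difference between the controls over the whole table, with a Spearman's rho of 0.48 across 10247 genes, and less so among the mitoribosomal genes, with 0.22 across 74. After a correction of each library for GC content, control replicate 2 was still below replicate 1 in 58 genes with a median difference of -0.34, and after one for exon length in 59 with -0.35. GC content also had a rho of -0.38 with the log2 fold change, miR-125b over control, among the 74 genes and -0.28 among all 10247. Genes are not independent here, and these values describe the libraries only. Against other gene groups, control replicate 2 was below replicate 1 in 57.1% of 84 respiratory chain and ATP synthase genes and in 38 of 76 cytosolic ribosomal protein genes. It was lower in 76.9% of 13 mitochondrial translation factors, in 8 of 10 genes of mitochondrial transcription and RNA handling, in 7 of 8 nuclear regulators, in 71.4% of 7 mitoribosomal proteins under other symbols, in 68.8% of 16 assembly genes and in 64.7% of 17 mitochondrial aminoacyl-tRNA synthetases. The median difference was -0.47 among the transcription and RNA handling genes, beyond that of the mitoribosomal genes, and -0.17 among the translation factors.

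The other genes of mitochondrial translation were summarised by lists. Of 7 mitoribosomal proteins under other symbols, 0 were higher and 1 was lower at an unadjusted p under 0.05, against 4.17% and 5.21% of all tested genes, with a median log2 fold change of 0.12. Mrp63, a large-subunit protein, stood at 12.9 and 12.4 RPKM with miR-125b, against 16.7 and 24.7 RPKM in control, a log2 fold change of -0.64 ± 0.23 (SE) with an adjusted p of 0.489 in limma's test. Its groups did not overlap, and the fold change was -0.91 without control replicate 1 and -0.38 without control replicate 2. Chchd1, a small-subunit protein, was at 28.9 and 45.4 RPKM with miR-125b, against 34.1 and 15.9 RPKM in control, so that the groups overlapped. Of 16 tested assembly and rRNA modification genes none had an unadjusted p under 0.05 in limma's test, against 9.38% of all tested genes. Their median was 0.017. The assembly GTPases Gtpbp5 and Mtg1 had the smallest p there. Gtpbp5 was at 8.77 and 8.23 RPKM with miR-125b, against 10.9 and 11.7 RPKM in control, and Mtg1 at 7.40 and 8.01 RPKM, against 8.71 and 10.7 RPKM. For both the miR-125b libraries were below the controls, and neither was called.

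The 13 mitochondrial translation factors had a median log2 fold change of 0.12, with 11 positive and 2 negative values. That is 15.4% negative, against 47.2% of all tested genes. None had an unadjusted p under 0.05 in limma's test, against 9.38% of all tested genes. Mtfmt, which formylates the initiator methionyl-tRNA, was at 8.30 and 11.4 RPKM with miR-125b, against 8.20 and 6.28 RPKM in control. Mrrf, the ribosome recycling factor, was at 5.29 and 5.76 RPKM with miR-125b, against 3.96 and 4.54 RPKM in control. Both were above control in each library, with adjusted p-values of 0.609 and 0.613 in limma's test. Among 17 mitochondrial aminoacyl-tRNA synthetases the median was 0.046. None had an unadjusted p under 0.05 in limma's test, against the same 9.38%. The seryl-tRNA synthetase gene Sars2 was at 6.0 and 5.40 RPKM with miR-125b, against 6.89 and 9.89 RPKM in control, and the histidyl-tRNA synthetase gene Hars2 at 8.69 and 7.57 RPKM, against 6.57 and 6.36 RPKM. The groups of both genes were apart, in opposite directions.

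The 10 tested genes of mitochondrial transcription and RNA handling had a median of 0.049. None had an unadjusted p under 0.05 in limma's test, against 9.38% of all tested genes. Hsd17b10, a subunit of mitochondrial RNase P, stood at 333 and 344 RPKM with miR-125b, against 255 and 276 RPKM in control. Lrpprc, which stabilises mitochondrial messages, was at 28.8 and 23.7 RPKM with miR-125b, against 24.996 and 13.2 RPKM in control. The groups of Hsd17b10 were apart and those of Lrpprc overlapped. Over all 10 genes both miR-125b libraries lay above both controls in 2 and below them in 2. The shares of all tested genes were 22.3% and 20.4%. Among 8 nuclear regulators the median was -0.080. Gabpa, the DNA-binding subunit of an ETS factor that drives many mitochondrial genes, was at 13.9 and 13.3 RPKM with miR-125b, against 11.9 and 9.41 RPKM in control, and the nuclear receptor gene Esrra at 16.9 and 11.9 RPKM, against 15.5 and 26.1 RPKM. Neither passed limma's test, with adjusted p-values of 0.609 and 0.621.

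For comparison, the 76 tested cytosolic ribosomal protein genes had a median log2 fold change of -0.17. Of them 52, or 68.4%, had negative values, against 47.2% of all tested genes. At an unadjusted p under 0.05, 0 were higher and 4 lower, against 4.17% and 5.21% of all tested genes. Rpl28, at 1.28 and 1.72 RPKM with miR-125b, against 2.87 and 4.47 RPKM in control, and Rpl10a, at 6.68 and 5.75 RPKM, against 10.8 and 9.52 RPKM, had the smallest p of that list. Reads of such genes are shared with many pseudogene copies, so their levels are uncertain. The 84 respiratory chain and ATP synthase genes had a median of 0.048, with 2 higher and 1 lower at an unadjusted p under 0.05, against the same shares of all tested genes. Cox7a1, a subunit of cytochrome c oxidase, was at 5.41 and 6.29 RPKM with miR-125b, against 2.43 and 3.16 RPKM in control, and Atp5l, a subunit of ATP synthase, at 8.22 and 6.67 RPKM, against 9.76 and 14.3 RPKM. None of these 4 genes was called, with adjusted p-values from 0.419 to 0.505 in limma's test. Differences between these lists and the mitoribosomal genes were not tested.

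Whether messages of mitoribosomal genes carry sites for miR-125b was read from their annotated 3′ UTRs. A miRNA pairs with its targets mainly through its seed, bases 2 to 8, shown here in capitals for the mature RefSeq sequence (GRCm38.p6, the same from chr9:41581940-41581961 and chr16:77646279-77646300, both on the plus strand), because every site below is read against it.
miR-125b-5p: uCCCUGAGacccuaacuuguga

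In the longest 3′ UTR of each gene (GENCODE M21, GRCm38), 6 of the 76 genes held a full seed match CTCAGGG, with or without a following A. Among the 74 tested genes that is 8.11%, against 15.6% of all tested genes with a 3′ UTR. The 3′ UTRs of the mitoribosomal genes were also shorter, with a median of 388.5 bases against 1140.5 bases over all tested genes. Mrps10 and Mrps25 held the match followed by A (an 8mer), and Mrpl16, Mrpl19, Mrps17 and Mrps26 held it without (a 7mer-m8 site). The match in Mrps17 lies in another transcript than the one deposited, and the 3′ UTR of Mrps26, of 3638 bases, is longer than its deposited exon length of 962 bases. The matches of the genes other than Mrps17 are shown on the strand of the gene, with the letters that pair with the seed in capitals and, for an 8mer, the A that follows.
Mrps10 (chr17:47378286-47378303, plus strand): gcCTCAGGGAtggcggat
Mrps25 (chr6:92173995-92174022, minus strand): tggtgcaggggtCTCAGGGAggcagtgc
Mrpl16 (chr19:11774783-11774810, plus strand): tttgaatgtaacCTCAGGGtacaacttc
Mrpl19 (chr6:81960586-81960613, minus strand): tgctaagcagacCTCAGGGtacctggca
Mrps26 (chr2:130565232-130565259, plus strand): accacagacaaaCTCAGGGcagcattaa

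Genes with such a match had a median close to that of the others. The median log2 fold change was -0.017 over the 6 genes with a match and -0.015 over the 65 without any site. Mrps10, a protein of the small-subunit head, was at 14.9 and 12.9 RPKM with miR-125b, against 18.9 and 15.6 RPKM in control, a log2 fold change of -0.29 ± 0.19 (SE) with an adjusted p of 0.643 in limma's test. Mrps25, the other gene with an 8mer, was at 13.5 and 13.0 RPKM with miR-125b, against 14.2 and 11.95 RPKM in control. The groups of Mrps10 were apart and those of Mrps25 overlapped. Mrps25 also overlaps Nr2c2 in the tables, and without counting by strand their reads cannot be told apart. Mrpl16 was at 39.5 and 28.8 RPKM with miR-125b, against 41.0 and 30.01 RPKM in control, and Mrpl19 at 9.67 and 8.96 RPKM, against 10.8 and 7.77 RPKM. In 3 further genes, Mrpl3, Mrpl11 and Mrpl55, only a shorter match TCAGGGA was found, and their median log2 fold change was -0.25. Neither of the genes with the smallest p, Mrps12 and Mrpl36, held a site of any of these kinds. Of the other genes named for small p, Mrps26 held a 7mer-m8 site and Mrpl55 the shorter match, and the rest held none. Both were lower in each miR-125b library than in either control, with log2 fold changes of -0.30 and -0.28. Log2 fold changes ran from -0.30 to 0.076 over the 6 genes with a match and from -0.54 to 0.60 over the 65 without any site. A part of the sites in these values was not tested.

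Promoters of mitoribosomal genes were searched in RefSeq windows (GRCm38.p6) from 250 bases before to 50 after the annotated start, which were present for 67 of the 76 genes. The letters CGCATGCG, a core of the NRF1 motif that reads the same on both strands, were in 7 of the 67, or 10.4%. Of 14440 genes with such a window, tested or not, 2.94% held them, and the shares below use the same genes. CCGGAAG, an ETS motif bound by GABPA, was in 24, or 35.8%, against 13.1% on either strand. AAGATGGC, a YY1 motif, was in 12, or 17.9%, against 3.66%. At least one of the 3 was in 53.7%, against 18.2%. NRF1, GABPA and YY1 are known regulators of nuclear genes for mitochondrial proteins, but a match is a description of letters and not a bound site. All 8 genes with AAGATGGC on the gene's own strand had it between 10 and 42 bases after the start, against 199 of 363 genes over the whole table. That range was chosen after the positions were seen, and the letters contain ATG, the start codon. Examples of each motif follow, 5′ to 3′ on the strand of the gene, with motif letters in capitals.
Mrpl22, NRF1 and ETS (chr11:58171606-58171655, plus strand): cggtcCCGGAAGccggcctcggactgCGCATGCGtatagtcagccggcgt
Mrpl32, NRF1 (chr13:14613037-14613086, minus strand): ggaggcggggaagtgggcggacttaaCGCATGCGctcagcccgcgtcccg
Mrps22, ETS (chr9:98601668-98601716, minus strand): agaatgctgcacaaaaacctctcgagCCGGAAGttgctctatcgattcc
Mrpl42, YY1 (chr10:95501905-95501932, minus strand): agattgaagcAAGATGGCgagcgcgcgg
Mrps7, YY1 (chr11:115604148-115604175, plus strand): gacagcggccAAGATGGCtgcccccgcg

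The genes in these examples did not share a direction. Mrpl22 was at 10.6 and 10.1 RPKM with miR-125b, against 11.0 and 7.66 RPKM in control, and Mrpl32 at 16.3 and 14.1 RPKM, against 21.1 and 12.5 RPKM. Mrps22, Mrpl42 and Mrps7, whose values are given above, likewise had both miR-125b libraries between the controls. In all 5 genes control replicate 1 was the highest library and control replicate 2 the lowest. The log2 fold change of largest size among them was 0.33, for Mrpl42.

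Many mitoribosomal genes begin next to another gene. In mm9, 23 of the 76, or 30.3%, start within 1000 bases of a gene on the opposite strand that points away. The share over all 21506 genes, tested or not, was 8.4%, and none was taken over tested genes alone. For the mitoribosomal genes the median distance between the starts was 142 bases. Mrps12 and Sars2 start 210 bases apart, and both were lower with miR-125b in every library, with log2 fold changes of -0.54 and -0.47. Neither was called, and Sars2 was at -0.24 without control replicate 2. Because the 2 genes are the smallest-p entries of their lists, the window before Mrps12 is shown. It runs over chr7:28741772-28742071 in GRCm38.p6 on the minus strand. The capitals mark the YY1 letters on the other strand (GCCATCTT) and the ETS letters at the start.
Mrps12: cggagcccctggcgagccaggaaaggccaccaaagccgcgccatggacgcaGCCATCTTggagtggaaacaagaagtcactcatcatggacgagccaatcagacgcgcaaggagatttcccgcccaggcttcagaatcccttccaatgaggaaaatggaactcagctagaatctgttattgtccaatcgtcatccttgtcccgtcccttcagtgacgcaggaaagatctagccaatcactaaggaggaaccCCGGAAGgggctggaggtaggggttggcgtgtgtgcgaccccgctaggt

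Other pairs ranged from close to opposite values. Mrpl14 and Tmem63b, 154 bases apart, had log2 fold changes of -0.14 and -0.14, and Mrps34 and Eme2, 33 bases apart, had -0.25 and -0.19. Mrpl46 and Mrps11, a large-subunit and a small-subunit gene, start 42 bases apart. Mrpl46 had a log2 fold change of -0.51, while Mrps11 was at 15.6 and 13.5 RPKM with miR-125b, against 14.2 and 16.5 RPKM in control, a log2 fold change of -0.075 with overlapping groups. Mrpl47 starts 308 bases from Ndufb5, a complex I subunit gene, which was at 64.5 and 70.6 RPKM with miR-125b, against 72.7 and 59.4 RPKM in control. Its log2 fold change was 0.038, against 0.60 for Mrpl47. Mrpl27 and Eme1, 37 bases apart, had log2 fold changes of -0.38 and 0.38, but with 1 library left out the value of Mrpl27 lay between -0.77 and 0.014. Of the 21 pairs in which both genes were tested, 14 had the same sign, or 66.7%, against 61.0% of 654 such pairs over the whole table. In addition 8 of the 76 genes, Mrpl19, Mrpl24, Mrpl41, Mrpl49, Mrpl53, Mrps6, Mrps25 and Mrps27, overlap another gene in the tables, so their reads are uncertain.

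**Figure D5:**
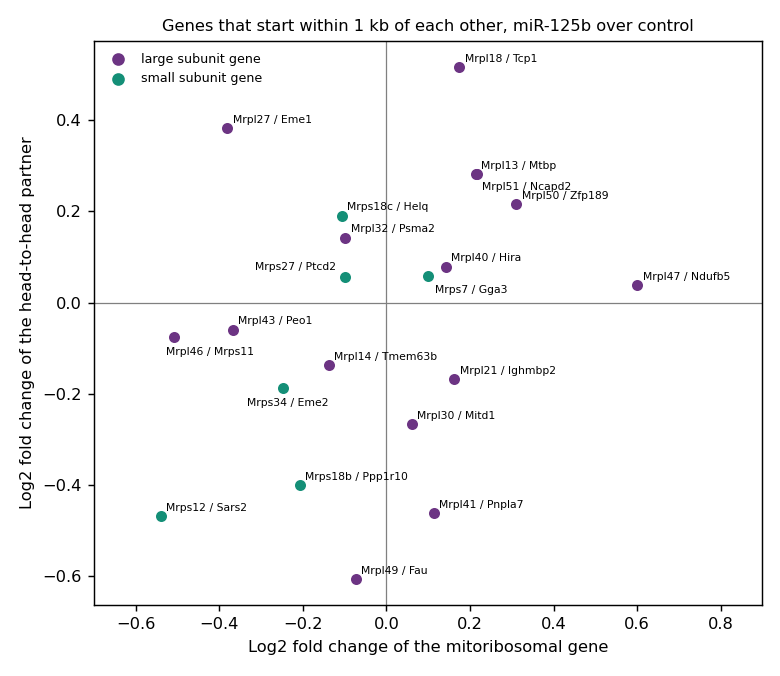
Log2 fold change, miR-125b over control, of mitoribosomal genes (horizontal axis) and of the gene that starts within 1 kb on the opposite strand (vertical axis), 1 point per pair, coloured by subunit. Mrps12 and Sars2 lie at the lower left (-0.54 and -0.47), Mrpl47 and Ndufb5 at the right (0.60 and 0.038), and 14 of 21 pairs fall in the quadrants of equal sign.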

How the data were processed

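The authors deposited 1 table per library with 26982 transcript rows, each with an exon length and an RPKM value. Per the submitters' processing notes, mm9 was used. Nothing on the aligner, counter, strand use or multi-mapping reads was given in the sources used here. RPKM times exon length gave whole reads in 100.0% of rows (tolerance 0.001 reads). The longest row was kept for each of 21506 genes. Groups came from the sample titles. The 10310 genes that reached 1 RPKM in 2 or more libraries were tested with limma 3.58.1 (R 4.3.3) on log2(RPKM + 1), trended prior, 2-sided, group as the only term, Benjamini-Hochberg adjustment and a threshold of 0.05; this scale understates changes of low genes. Residual degrees of freedom were 2, prior ones 4.63. The script was tested on simulated data. The members and lists were chosen with earlier results of these data known. By rule, with subunits by symbol, the text names the 6 large-subunit and 4 small-subunit genes with the smallest p. It also names the 3 highest and 2 lowest levels of each subunit and the extreme fold changes. The untested genes and the 2 smallest p of each list are described too, except Csf2rb, Gata1 and Thy1 among the markers. Other genes were named after their values were seen. GC content and 3′ UTRs came from GENCODE M21 (GRCm38), joined by RefSeq identifier or symbol for 98.9% of genes; motifs and miR-125b from RefSeq tables. Alternatives covered filters, pseudocount, scaling, voom, row per gene, GC content, exon length, the replicate block and each library left out. Counting intervals and floors cover counting error only.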

Additional observations from a re-analysis of the deposited data

How the results depend on the processing

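No mitoribosomal gene was called in any of 13 alternatives to limma's test, over single changes of filter, pseudocount, scaling, row per gene, model and library. Among all genes, 137 were called without a filter on low values, 1 after a correction for exon length and between 0 and 108 with 1 library left out. With 1 library left out, between 322 and 3018 genes had an unadjusted p under 0.05. Mitoribosomal genes higher at an unadjusted p under 0.05 numbered 2 without a filter and between 0 and 17 with 1 library left out. Those lower numbered 1 with limma-voom, 1 after a correction for exon length, 1 after one for GC content and between 0 and 10 with 1 library left out. In either direction these were 5.26% without a filter (6.25% of all genes tested), 1.35% with voom (9.67%) and after the corrections (9.31% and 11.1%), and 29.7% without control replicate 1 (29.5%). The difference between the median log2 fold changes of the subunits, large minus small, lay between 0.030 and 0.105 with 1 library left out. The medians themselves lay between -0.13 and 0.15 (large) and between -0.16 and 0.077 (small) in those fits, so neither has a fixed sign; assigning subunits by place in the mitoribosome gave 0.019 and -0.072. The sign was not the same in every fit with 1 library left out for 48 of the 74 tested genes, among them, of those named for level or p, Mrpl12 (from -0.12 to 0.16), Mrpl42 (from -0.078 to 0.74), Mrpl48 (from -0.19 to 0.23), Mrpl35 (from -0.13 to 0.54), Mrps7 (from -0.19 to 0.39), Mrps18c (from -0.39 to 0.18) and Mrps5 (from -0.23 to 0.12). Among marker genes it changed for Klf1 (from -0.18 to 0.51) and Pdgfrb (from -1.11 to 0.36). Mrpl48 was at -0.26 with its shortest row and -0.054 after the GC correction. The cause of these changes was not tested, other than that fewer libraries enter. Summed RPKM has no value under alternatives that act only on log values.

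The replicate numbers did not pair the libraries, since deviations of same-numbered libraries correlated at 0.021 over 10310 genes and 0.16 over the mitoribosomal genes. With the replicate block 12 genes of the whole table were called, none of them mitoribosomal, and 1 mitoribosomal gene was higher and 3 lower at an unadjusted p under 0.05, or 5.41%, against 10.5% of all genes. The GC correction together with the block was not run.

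With 98 to 6874 reads per tested mitoribosomal gene over the 4 libraries, and a median standard error of 0.215, differences smaller than the spread between the control cultures were not detectable for single genes.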
